A study of Mus musculus with 2 samples.

Results

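The 10 genes described here are Yap1 and Wwtr1 (which codes for Taz), the 4 Tead genes, the kinase genes Lats1, Lats2 and Stk3, and the angiomotin gene Amotl2. They were chosen by name as parts of the Hippo pathway, with earlier results of these data known. They are 10 of 43346 gene rows in each table, and all 10 were found. The tissue was the facial prominence of the mouse embryo, which builds the face and jaws, taken at embryonic day 15.5 from strain B6NCrl with no treatment and no second group. Replicate 1 pooled 78 embryos and replicate 2 pooled 62, of both sexes and with the same donor label, and each library began with 10 ng of total RNA over 200 nucleotides long. Both libraries therefore describe 1 group, so no test between conditions exists, and the spread is that between 2 pools.

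The Hippo pathway is a kinase chain that restrains growth. Stk3 and its paralog Stk4 activate Lats1 and Lats2, which phosphorylate Yap and Taz and keep them out of the nucleus. When the chain is quiet, Yap and Taz enter the nucleus and bind the Tead transcription factors, which carry the DNA-binding domain that the coactivators lack. In mouse neural crest, the source of most facial mesenchyme, Yap and Taz are known to be needed for craniofacial development. Phosphorylation and nuclear entry are not visible in RNA levels.

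All 10 genes were expressed at 5 TPM or more in both libraries. The share of all coding genes at 5 TPM was not computed. Their median was 6 TPM in replicate 1 and 6.195 TPM in replicate 2, so that level was common. TPM, the share of all transcripts that a gene takes, is scaled by transcript length, so genes can be set side by side within a library. The median of the 10 was 26.3 TPM in replicate 1 and 25.2 TPM in replicate 2. The median over the 14052 coding genes at 1 TPM or more in both libraries was 18.01 and 18.07 TPM, and those genes were 65.4% of all coding genes. Of the 10 genes, 7 lay above that median. Tead2 stood at the top, above 90.9% of the detected coding genes, and Tead4 at the bottom, above 23.5% of them.

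The depth was 37128010 expected counts for replicate 1 and 38543623 for replicate 2, and 1 read on a transcript of 1 kb was worth 0.0406 and 0.0389 TPM. The cell type markers were chosen with earlier results of these data known. All 10 facial mesenchyme markers were detected, with medians of 55.0 and 58.8 TPM. So were all epithelium, skeletal muscle, cartilage, endothelium and neuron markers chosen. Of 4 heart and trophoblast markers none reached 1 TPM in both libraries, and Prl3d1 and Tpbpa were listed at 0. Cartilage markers summed to 252 TPM in replicate 1 and 433 TPM in replicate 2, and muscle markers to 1499 and 1150 TPM. In such bulk tissue, fewer cells of a type and less RNA per cell cannot be told apart.

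**Figure D1:**
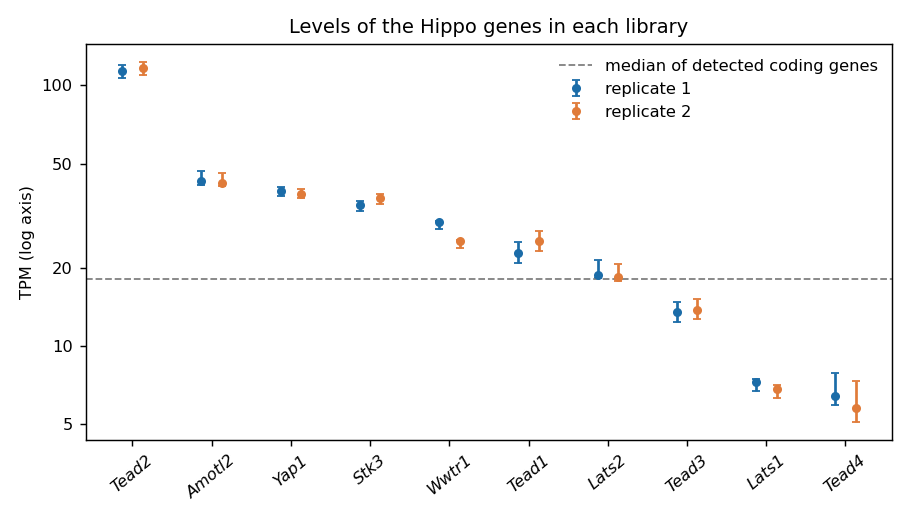
TPM (log axis) of the 10 Hippo genes in replicate 1 (blue) and replicate 2 (orange), ordered by mean level, with the credibility bounds deposited by the authors as bars and the median of detected coding genes as a dashed line. Tead2 lies above all others, Lats1 and Tead4 lie lowest, and only Wwtr1 has bounds that are apart between the libraries.

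The order of the genes by mean level was Tead2, Amotl2, Yap1, Stk3, Wwtr1, Tead1, Lats2, Tead3, Lats1 and Tead4. No neighbours in that order had overlapping values across the 2 libraries. By the stricter measure of the credibility bounds that the authors deposited for each value, 4 neighbouring pairs overlapped in at least 1 library. They were Yap1 with Stk3, Wwtr1 with Tead1, Tead1 with Lats2, and Lats1 with Tead4.

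Yap1, the main coactivator that the kinases restrain, was expressed at 39.4 TPM in replicate 1 and 38.4 TPM in replicate 2. The values lay close together, with bounds of 37.8 to 40.9 and 36.8 to 40.002 TPM. Yap1 lies on the minus strand at chr9:7931999-8004596 (ENSMUSG00000053110.9) in GRCm38. Wwtr1 codes for Taz, the paralog of Yap, and lies on the minus strand at chr3:57455649-57575910 (ENSMUSG00000027803.10). It had 29.9 TPM, with bounds of 28.2 to 30.2, in replicate 1 and 25.2 TPM, with bounds of 23.8 to 25.6, in replicate 2. Replicate 1 was thus the higher library for Wwtr1. Yap1 exceeded Wwtr1 1.32-fold in replicate 1 and 1.52-fold in replicate 2, with bounds apart in both.

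The Yap1 transcripts came in forms that differ by 1 short exon. Yap1-202, which lacks the sixth exon of Yap1-201, took 58.9% of Yap1 transcripts in replicate 1 and 66.6% in replicate 2. Yap1-201, which has that exon, took 35.6% and 26.9%. Among the coding models that span the site, those with the exon made up 39.7% and 32.4% (36.0% ± 5.10, SD, n = 2). The exon of 48 bases is 16 codons long and lies at chr9:7950492-7950539. In human YAP1, a like insert falls in the transactivation domain. It is shown in capitals, between the spliced ends of its neighbouring exons, as the stretch by which the main Yap1 forms of this tissue differ; the letters are from the GENCODE M21 transcript.
Yap1-201 sixth exon: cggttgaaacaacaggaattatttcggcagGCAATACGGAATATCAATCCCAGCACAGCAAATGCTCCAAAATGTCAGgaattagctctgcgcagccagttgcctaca
Exon 4, of 114 bases, codes for the second WW domain, the fold that binds Lats and angiomotin proteins. All 3 coding Yap1 models that span it hold it, so its share of 100% was set by the annotation. Whether a form without exon 4 was present could therefore not be seen. Among its 2 models, Wwtr1 showed no split like that of the main Yap1 forms, since Wwtr1-201 took 98.1% and 97.7% of its transcripts. A Wwtr1 form outside those models could not be seen either.

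Tead2 had the highest level of the 4 Tead factors. It had 113.9 TPM in replicate 1 and 116.6 TPM in replicate 2, from 5103 and 5390 expected counts, and lies on the plus strand at chr7:45215753-45233644 (ENSMUSG00000030796.11). The bounds of 107 to 120 and 109 to 123 TPM overlapped between the libraries. Tead2 is the Tead gene known for its early embryonic expression, as against the broad expression of Tead1. It made up 72.8% and 72.3% of the summed Tead TPM. Tead1 made up 14.5% and 15.6%, Tead3 8.61% and 8.54%, and Tead4 4.12% and 3.58%.

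Tead3, which is known for high expression in placenta, had 13.5 TPM in replicate 1 and 13.8 TPM in replicate 2, and lies on the minus strand at chr17:28331671-28350817 (ENSMUSG00000002249.13). Tead4, which in mouse is needed to form the trophectoderm of the early embryo, had 6.45 and 5.78 TPM and lies on the minus strand at chr6:128224288-128300823 (ENSMUSG00000030353.11). Tead1 had 22.7 and 25.2 TPM and lies on the plus strand at chr7:112679318-112906807 (ENSMUSG00000055320.12). Tead2 exceeded Tead3 8.46-fold in both libraries and exceeded Tead4 17.7-fold and 20.2-fold. Tead3 exceeded Tead4 2.09-fold and 2.38-fold. In each of these pairs the bounds were apart in both libraries, over all transcript models.

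The place of Tead1 rested on a short transcript model. Tead1-209, a model of 646 bases annotated as a retained intron, took 57.2% of Tead1 transcripts in replicate 1 and 67.1% in replicate 2, which is 13.0 and 16.9 TPM. It drew only 174.5 and 237.5 expected counts. Tead1-202, the leading coding model at 9480 bases, drew 1392 and 1248 counts but came to 6.02 and 5.18 TPM. Retained-intron models as a class held 68.3% and 75.8% of Tead1 TPM, against 12.4% and 17.5% of its counts.

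The expected count and the TPM of Tead1 also moved in opposite directions between the libraries. TPM was higher in replicate 2 (log2 ratio 0.15), whereas the scaled count was higher in replicate 1 (log2 ratio -0.22). Without the models annotated as noncoding, Tead1 had 7.19 TPM in replicate 1 and 6.01 TPM in replicate 2, and was ninth of the 10 genes in place of sixth. Tead1 exceeded Tead3 1.68-fold and 1.83-fold over all models. Without noncoding models, Tead3 exceeded Tead1 1.53-fold and 1.92-fold, at 11 and 11.5 TPM. Tead2 then made up 82.2% and 83.3% of Tead TPM, and Tead1 lay only 1.11-fold and 1.04-fold above Tead4. With only the models that M21 lists as coding, which also leaves out the models not in M21, the order of the lower Tead genes differed between the libraries. Tead1, Tead3 and Tead4 then had 7.19, 5.62 and 6.45 TPM in replicate 1 and 6.01, 8.53 and 5.79 TPM in replicate 2. Tead3 thus lay below both others in replicate 1 and above both in replicate 2. Tead2 stayed the highest, at 97.43 and 97.35 TPM, 17.3-fold and 11.4-fold above Tead3. The Tead2 models not in M21 held 14.5% and 16.5% of its TPM, against 3.74% and 4.12% of its counts. Both settings were chosen after the transcript values had been seen.

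**Figure D2:**
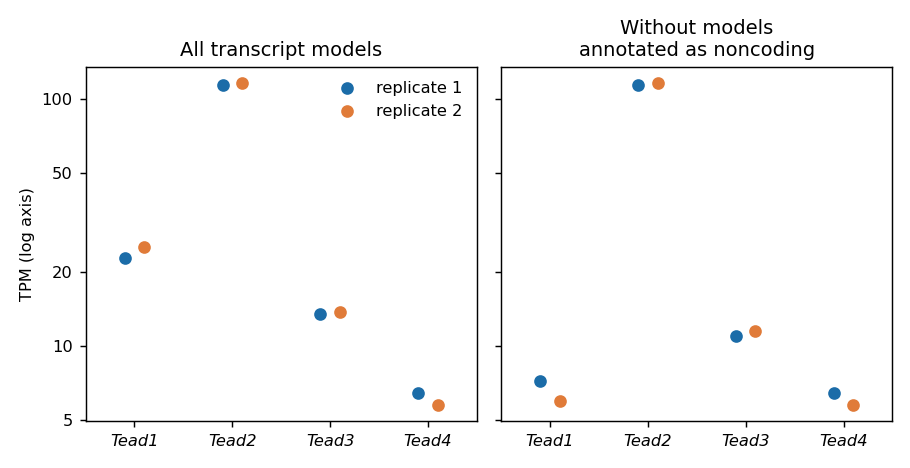
TPM (log axis) of the 4 Tead genes in replicate 1 (blue) and replicate 2 (orange), over all transcript models (left) and without models annotated as noncoding (right). Tead2 is highest in both panels, at 114 to 117 TPM, while Tead1 lies above Tead3 on the left and below it on the right.

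Exon 3 of Tead1-209, 487 bases at chr7:112841888-112842374, runs across a pair of neighbouring coding exons of 63 bases each. It also holds the intron of 89 bases between them and 272 bases of the next intron. Of the whole model, 55.9% is intronic in the coding transcripts. The paired exons are 44 of 63 bases identical (69.8%). The downstream exon codes for the end of the TEA DNA-binding domain in the usual form of the protein. Among the coding models that span the site, models with the downstream exon made up 98.0% in replicate 1 and 99.1% in replicate 2. Models with the upstream exon made up 11.4% and 6.10%. Most of that share was Tead1-201, which holds both exons and had only 0.73 and 0.29 TPM. A coding exon of only 12 bases further on was in 14.1% and 7.002%. The stretch at chr7:112841888-112842187 on the plus strand is shown because it lies in the model that takes most of the Tead1 TPM. Capitals mark the paired exons, lower case marks the introns, and the letters are from the GENCODE M21 transcript.
Tead1-209 stretch: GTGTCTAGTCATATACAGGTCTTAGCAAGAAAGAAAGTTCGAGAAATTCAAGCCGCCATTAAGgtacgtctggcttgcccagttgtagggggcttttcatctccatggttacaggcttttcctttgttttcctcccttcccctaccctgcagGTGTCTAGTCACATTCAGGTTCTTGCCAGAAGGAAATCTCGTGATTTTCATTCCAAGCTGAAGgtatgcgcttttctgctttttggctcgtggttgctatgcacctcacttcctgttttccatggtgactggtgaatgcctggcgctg

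The other Tead genes also came in several forms. Tead2-201 took 58.9% and 65.8% of Tead2 transcripts, and Tead2-202 took 21.8% and 12.8%. Tead2-202 lacks 105 bases, or 35 codons, of the TEA domain, at chr7:45217346-45217450. The part was present in 74.5% of the coding Tead2 transcripts in replicate 1 and in 84.7% in replicate 2. It is shown in capitals because its loss takes away part of the DNA-binding domain.
Tead2-201 segment: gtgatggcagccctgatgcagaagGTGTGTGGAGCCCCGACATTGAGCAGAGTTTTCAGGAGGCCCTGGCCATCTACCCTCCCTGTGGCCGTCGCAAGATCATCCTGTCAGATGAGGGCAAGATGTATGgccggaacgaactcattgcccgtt
Tead4-203 took 54.7% of Tead4 transcripts in replicate 1 and 40.6% in replicate 2, and Tead4-201 took 45.3% and 47.7%. An exon of 129 bases at chr6:128247960-128248088 on the minus strand, which Tead4-203 skips, was in 45.3% and 54.0% of the coding transcripts that span it. It is shown, in capitals, as an exon by which the leading Tead4 forms differ. These forms also begin and end at different places.
Tead4-201 exon: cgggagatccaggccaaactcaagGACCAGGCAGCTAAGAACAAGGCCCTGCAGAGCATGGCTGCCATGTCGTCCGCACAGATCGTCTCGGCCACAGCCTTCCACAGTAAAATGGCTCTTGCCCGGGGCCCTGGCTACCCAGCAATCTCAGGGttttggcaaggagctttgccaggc
The letters of both are from GENCODE M21 transcripts. For Tead3, Tead3-201 took 31.4% and 42.9%, a model of 2616 bases that M21 no longer lists under the gene took 39.95% and 21.87%, and the retained-intron model Tead3-202 took 10.8% and 10.0%. The leading transcript of Tead3 and of Tead4 therefore changed between the libraries. At 804 and 857 counts for Tead3, and 355 and 316 for Tead4, these genes had the fewest reads of the 10.

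**Figure D3:**
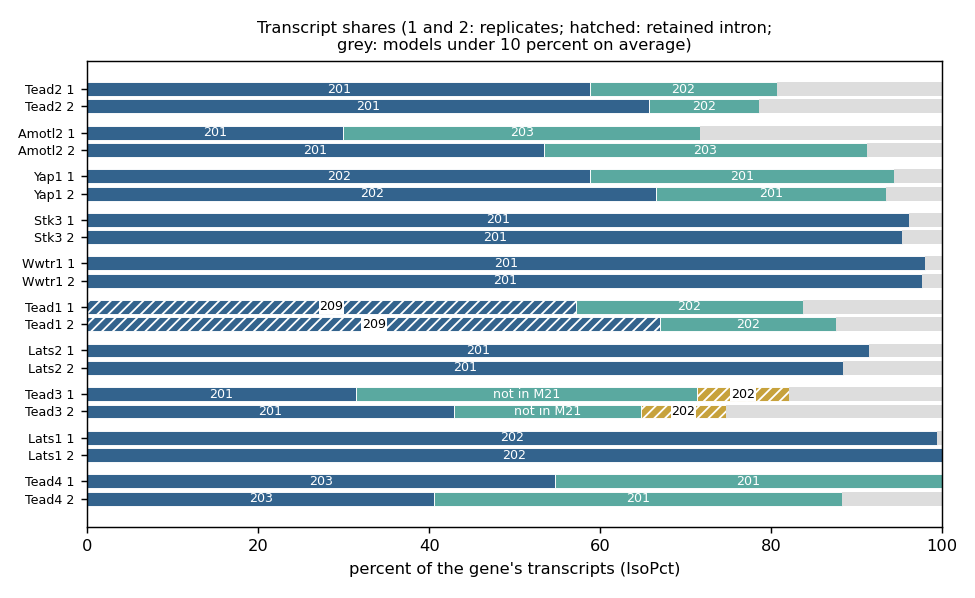
Share of each gene's transcripts (percent) taken by each model with a mean of 10% or more, for the 10 Hippo genes in replicate 1 (upper bar) and replicate 2 (lower bar), with retained-intron models hatched and the rest in grey. Wwtr1, Stk3, Lats1 and Lats2 rest on 1 model each, while Amotl2, Tead3 and Tead4 change their leading model between the libraries.

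The kinase genes were present as unequal paralog pairs. Lats2 had 18.7 TPM in replicate 1 and 18.3 TPM in replicate 2, and Lats1 had 7.24 and 6.83 TPM. Both kinases phosphorylate Yap and Taz directly. Lats2 exceeded Lats1 2.59-fold and 2.68-fold. Lats1 lies on the plus strand at chr10:7681214-7716460 (ENSMUSG00000040021.8) and Lats2 on the minus strand at chr14:57689662-57758388 (ENSMUSG00000021959.11). Stk3, the kinase also called Mst2 that activates Lats, had 34.8 and 37.0 TPM and lies on the minus strand at chr15:34875496-35178921 (ENSMUSG00000022329.10). It exceeded its paralog Stk4, at 14.5 and 14.1 TPM, 2.40-fold and 2.62-fold. Each of these genes rested on 1 coding model: Lats1-202 took 99.4% and 100% of transcripts, Stk3-201 took 96.2% and 95.4%, and Lats2-201 took 91.4% and 88.5%. Lats2-201 shares 2956 bases at 100% identity with a read-through gene of M21, Gm49361, which was not used here.

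Amotl2 codes for an angiomotin that binds Yap and holds it at cell junctions. It had 43.1 TPM in replicate 1 and 42.3 TPM in replicate 2, and lies on the plus strand at chr9:102716672-102733418 (ENSMUSG00000032531.11). It exceeded its paralogs in both libraries, Amot 2.78-fold and 3.57-fold, and Amotl1 1.41-fold and 1.62-fold. The gene total was steady, whereas its transcript Amotl2-201 was not. Amotl2-201 had 12.9 TPM, with bounds of 8.71 to 15.9, in replicate 1 and 22.6 TPM, with bounds of 17.5 to 23.9, in replicate 2. Its share was 29.97% in replicate 1 and 53.42% in replicate 2. Amotl2-203, a model annotated without its coding start, took 41.7% and 37.9%. Amotl2-211, whose start lies 866 bases upstream of that of Amotl2-201, took 16.6% and 3.19%. For Amotl2-203 and for Amotl2-211 the bounds overlapped between the libraries. Of the 80 transcript models of the 10 genes, 2 had bounds apart between the libraries, Amotl2-201 and Wwtr1-201. A further 25 models had 0 counts in both. Over all transcript models of the libraries, neither share was computed, so both counts are a description only.

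Of the other 87 listed pathway genes, 81 had 1 TPM or more in both libraries, where 65.4% of all coding genes did. The pathway lists were chosen with earlier results of these data known. All 8 core kinase and scaffold genes were detected, with medians of 16.6 and 16.2 TPM. Besides those above they were Mob1a, a Lats cofactor, at 53.0 and 50.5 TPM, its paralog Mob1b at 9.94 and 10.1 TPM, the Stk3 scaffold Sav1 at 8.02 and 7.59 TPM, and the membrane scaffold Nf2 at 37.7 and 39.8 TPM. Mob1a exceeded Mob1b 5.33-fold and 5.01-fold. All 12 kinases of parallel branches were detected, led by Stk38, Taok2 and Map4k4. Of 23 upstream regulators 19 were detected, led by Rassf1, Llgl1 and Frmd6. Those under 1 TPM in at least 1 library were the giant cadherins Fat2, at 0.85 TPM in replicate 2, and Dchs2, at 1.00 and 0.89 TPM, and the polarity genes Crb1 and Crb2, at 0.05 and 0 TPM and at 0.09 and 0.12 TPM.

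All 15 angiomotin and adaptor genes were detected, with medians of 42.7 and 42.1 TPM. The highest were the 14-3-3 genes Ywhae, Ywhaz and Ywhaq, whose proteins hold phosphorylated Yap in the cytoplasm, at 527 to 596 TPM in replicate 1 and 526 to 589 TPM in replicate 2. Another 14-3-3 gene, Ywhab, had 233 and 231 TPM. The kinases Csnk1d and Csnk1e, which prime Yap for breakdown, had 99.1 and 98.1 TPM and 91.2 and 86.0 TPM, and the ubiquitin ligase subunit Btrc had 13.3 and 13.5 TPM. The Lats inhibitors of the Ajuba family were Limd1, at 42.7 and 41.0 TPM, Ajuba, at 35.9 and 42.1 TPM, and Wtip, at 5.45 and 5.18 TPM. Amotl1 had 30.5 and 26.2 TPM, Amot 15.5 and 11.9 TPM, and the junction protein gene Tjp1 had 16.4 and 16.2 TPM. Of the 12 genes of STRIPAK, the phosphatase complex that acts on Stk3 and Stk4, 11 were detected, led by Ppp2r1a, Mob4 and Strn4, and Strip2 lay at 0.83 and 0.84 TPM.

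Among the Vgll cofactors, which bind Tead factors at the Yap and Taz surface, Vgll4 had 102.1 TPM in replicate 1 and 95.9 TPM in replicate 2. Vgll4 is known as a repressor of Tead activity. Vgll3 had 34.1 and 34.3 TPM, Vgll2 had 14.3 and 11.6 TPM, and Vgll1 lay at 0.17 and 0.27 TPM. Vgll4 was therefore the highest cofactor, and its TPM was above those of Yap1 and Wwtr1 in both libraries.

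All 22 listed target genes of Yap and Taz were detected, where 65.4% of all coding genes were. The list was chosen with earlier results of these data known, so this count is a description only. The medians were 17.0 and 15.9 TPM, close to those of detected coding genes. Lats2 and Amotl2 are themselves known targets and are counted among the 22. The highest were the growth factor binding gene Igfbp3, at 170.5 and 152.6 TPM, the receptor kinase Axl, at 97.1 and 85.9 TPM, and Asap1, at 72.7 and 67.6 TPM. Rbms3 had 71.5 and 65.8 TPM and Tgfb2 68.8 and 67.6 TPM. The matricellular genes most used as Yap readouts, Ccn1 (Cyr61) and Ccn2 (Ctgf), had 50.2 and 51.8 TPM and 17.8 and 17.0 TPM. Ankrd1 had 4.95 and 3.97 TPM. Others ran from Nt5e, at 16.3 and 14.9 TPM, through Gadd45a, Fjx1, Ptpn14, Nuak2, Myof, Arhgef17, Crim1 and Foxf2, down to Dock5, at 1.19 and 1.09 TPM.

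**Figure D4:**
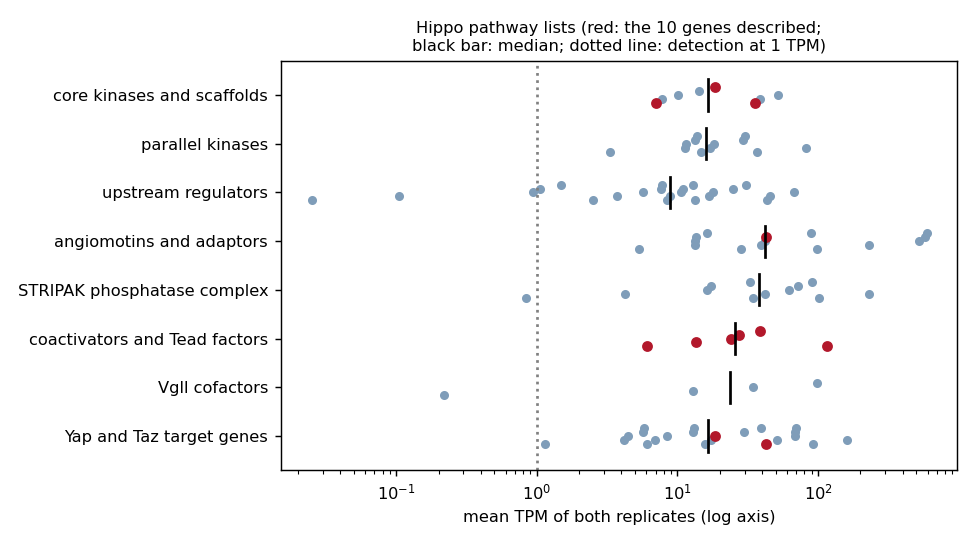
Mean TPM of both replicates (log axis) for each gene of 8 Hippo pathway lists, with the 10 genes described in red, list medians as black bars and 1 TPM as a dotted line. Most genes lie to the right of 1 TPM, and Vgll1, Strip2 and a few upstream regulators lie to its left.

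None of the 10 genes passed a 1.5-fold ratio between the libraries, where 9.08% of 18318 genes did, 4.78% being higher in replicate 2 and 4.31% in replicate 1. These were the genes that reached 10 counts in each library. They include many with few reads. Of the 11499 genes that reached 300 counts in each, a depth that all 10 genes share, 1.30% passed, so the count of 0 is near the background. At a ratio of 5 to 4 the members still numbered 0, against 20.4% of the 18318, a share that was not computed for the deeper genes. Wwtr1 was the member with bounds apart between the libraries, against 16.7% of the 18318 genes and 19.1% of the deeper ones. Its log2 ratio of replicate 2 over replicate 1 was -0.24, that of Tead4 was -0.23, and that of Tead1 was -0.22. The other 7 lay between -0.08 and 0.08. Of the 10 genes 6 were higher in replicate 1 and 4 in replicate 2. Scaled to the spike-ins instead, all 10 were higher in replicate 1 and 8 passed 1.5-fold, but that scaling moved the median of all genes by -0.65 on the log2 scale and put 65.6% of them past 1.5-fold. Relative to that shift the members stayed near the other genes, with a median of -0.70. Among the target genes, only F3, the gene of tissue factor, passed 1.5-fold, with 21.6 TPM in replicate 1 and 37.7 TPM in replicate 2. Cartilage markers were higher in replicate 2, with 3 of 4 past 1.5-fold, and their part in the F3 value was not tested.

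**Figure D5:**
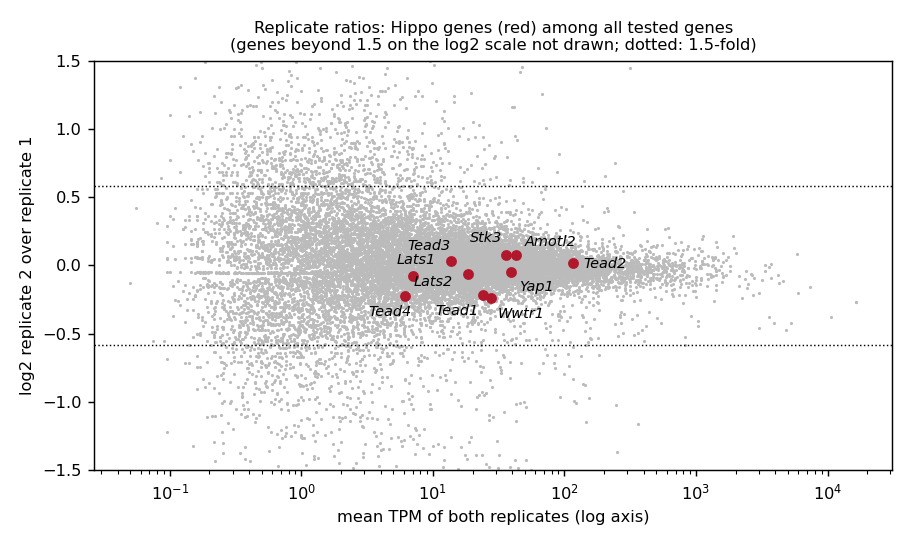
Log2 ratio of replicate 2 over replicate 1 against mean TPM (log axis) for genes that reached 10 counts in each library (grey), with the 10 Hippo genes in red and 1.5-fold as dotted lines. All red points lie between the dotted lines, and Wwtr1, Tead1 and Tead4 are the lowest of them.

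The promoters of several of these genes hold the letters that Tead factors bind. RefSeq windows on GRCm38.p6, running from 250 bases before to 50 after a gene start, were given for 7 of the 10 genes, as 11 windows. The Tead motif GGAATG, or its reverse complement CATTCC, was in at least 1 window of 5 of the 7 genes (71.4%), namely Yap1, Wwtr1, Tead3, Lats2 and Amotl2. No match was found for Tead2 and Lats1. Over all 27025 genes with a window the share was 16.6%, and over 10932 detected coding genes it was 14.5%. By window, 7 of 11 (63.6%) held it, against 14.7% of all 32851 windows, with the same Wwtr1 site counted in both of its overlapping windows. In the target list, whose genes were listed because they are known Yap and Taz targets, 8 of 16 genes held it, and 6 of 14 without Lats2 and Amotl2. A match is a run of letters and not a measured binding site.

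The sites are shown with the strand turned so that the motif, in capitals, reads the same way in each, so that its flanks can be compared. Distances are from RefSeq starts. The Yap1 site lies at chr9:8004720-8004749 (minus strand, 141 bases before the start). For Wwtr1 it lies at chr3:57576029-57576058 (minus strand, 136 bases before the first start). Wwtr1-201, the model with most Wwtr1 transcripts, begins further downstream, at base 57575828. For Lats2 it lies at chr14:57746102-57746131 (minus strand, from base 5 after the start). The Amotl2 site is at chr9:102717727-102717756 (minus strand, 65 bases before the RefSeq start). It lies downstream of the GENCODE start of Amotl2-201, which is at base 102717668. The first Tead3 site is at chr17:28350970-28350999 (minus strand) and the second at chr17:28350706-28350735 (plus strand).
Yap1 site: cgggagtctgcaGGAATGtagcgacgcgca
Wwtr1 site: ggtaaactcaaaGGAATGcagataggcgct
Lats2 site: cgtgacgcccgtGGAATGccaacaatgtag
Amotl2 site: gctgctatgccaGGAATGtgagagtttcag
Tead3 first site: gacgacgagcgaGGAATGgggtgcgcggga
Tead3 second site: gccggaatgtacGGAATGagcccggccgga
Tead3 held 4 matches in all, over 2 of its 3 windows. The second Tead3 site has a further copy of the motif just before it, in lower case in the same line. The wider promoters of both coactivator genes run from 250 bases before to 30 after the RefSeq start, the first one for Wwtr1. They are at chr9:8004567-8004846 for Yap1 and chr3:57575881-57576160 for Wwtr1, both on the minus strand.
Yap1 promoter: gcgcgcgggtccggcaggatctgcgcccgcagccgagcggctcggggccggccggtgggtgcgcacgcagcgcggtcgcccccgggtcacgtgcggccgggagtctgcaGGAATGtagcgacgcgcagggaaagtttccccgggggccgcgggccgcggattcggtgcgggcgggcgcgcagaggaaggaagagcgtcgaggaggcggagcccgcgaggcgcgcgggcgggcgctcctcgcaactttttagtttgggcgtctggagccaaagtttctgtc
Wwtr1 promoter: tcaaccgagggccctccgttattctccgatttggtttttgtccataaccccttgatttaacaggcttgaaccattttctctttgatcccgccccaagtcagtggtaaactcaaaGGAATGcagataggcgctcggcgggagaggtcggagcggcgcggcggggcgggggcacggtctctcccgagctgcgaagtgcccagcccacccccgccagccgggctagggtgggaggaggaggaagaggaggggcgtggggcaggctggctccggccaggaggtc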

How the data were processed

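The authors sequenced 2 libraries and quantified each by itself against assembly mm10 and annotation M4, as the text deposited beside each sample says. Which aligner, quantification program and strand setting they used is not given in the sources used here. The assay is labelled as total RNA-seq, although a manual for a low-input kit is linked as well. Per the file headers, the authors gave for each gene and transcript an expected count, TPM and FPKM, the percent of the gene's transcripts (IsoPct) and credibility bounds of TPM, recorded here as a score, whose level the files do not give. Deposited TPM includes spike-in sequences, which took 6.42% and 10.1% of it.

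The members and gene lists were chosen with earlier results of these data known. Genes and transcript types were named by GENCODE M21 (GRCm38), and 63 of the 80 members' models had the same length there. A gene was detected at 1 TPM in both libraries. Replicate ratios used rounded expected counts with TMM factors and a prior count of 2 in edgeR 4.0.16 (R 4.3.3), for genes reaching 10 counts in each library, and were tested on simulated data. The biological coefficient of variation was 0.127, and DESeq2 1.42.0 gave the size factors of an alternative scaling. Python 3.11.15 with pandas 2.3.3 did the rest, and blastn 2.17.0 looked for copies at 95% identity or more. No p-value was computed, since the labels give 1 group. Named genes were all members, their paralog pairs, all genes of 4 lists, the highest 3 of each other list and those under 1 TPM. A gene that the rule names is not reported here. Without a known strand setting, reads of antisense partners cannot be told apart: those of Yap1, Tead1 and Tead4 had under 0.5 TPM, Cd37, which overlaps Tead2 by 13 bases, had 3.92 and 3.88 TPM, Gm26440 in Lats2 had 0 and 3.89 TPM, Gm16016 in Wwtr1 had 1.62 and 0.52 TPM, and Gm20430 in Lats2 had 22.8 and 14.1 TPM. Sequences of the 10 proteins were not analysed here.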

Additional observations from a re-analysis of the deposited data

How the results depend on the processing

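No paired analysis was possible because both libraries belong to 1 group. All 10 members stayed detected at 5 TPM, with posterior mean TPM and in each library alone. All 12 gene pairs kept their order in each library and with posterior means. The order was also the same with FPKM, but within a library FPKM is TPM times a constant, so it could not differ. The median of the members, 25.7 TPM, became 28.1 TPM when TPM was rescaled to mouse genes. It became 22.98 TPM without models annotated as noncoding, and 22.98 TPM with coding models of M21 alone, both chosen after seeing the data. The log2 ratio of Tead1 over Tead3, 0.81, turned to -0.78 and -0.075 in those settings. The second value averages opposite orders, Tead1 being 1.28-fold higher in replicate 1 and Tead3 1.42-fold higher in replicate 2. With spike-in scaling, which put 65.6% of all genes past 1.5-fold, 8 members passed. None passed under the other scalings. None passed at a ratio of 5 to 4 either, which 20.4% of all tested genes passed, genes with few reads included. None passed with the other count filters and prior count. Those settings could hardly change this, since each member had at least 316 counts in each library. A motif of 7 letters left 3 of 7 genes with a match, against 4.47% of all genes, and the part before the start left 4, against 14.4%. Of the 97 listed pathway genes 83 were detected at 5 TPM. The share of all coding genes at 5 TPM was not computed. The 2 pools leave the biological spread poorly known.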
